A study of Mus musculus with 12 samples.

Results

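The transcripts of 10 integrin chains that leukocytes, platelets and stromal cells carry were followed in mouse spleen. They were chosen by gene symbol and by their known partners: Itga4, Itgb1, Itgb7, Itgal, Itgb2, Itga5, Itga6, Itgav, Itgb3 and Itga9. They are 10 of 26 integrin chain genes looked up in the tables and of 18221 genes in all, and each of the 10 was among the 12671 genes that had enough signal to be tested. Spleen RNA came from 12 male ICR mice, an outbred stock, with 3 mice in each of 4 groups. Treatment began at 3 weeks of age and the spleens were taken at 8 weeks. Con-sa mice were dosed with saline and received no busulfan. B-sa mice received a single injection of busulfan, an alkylating drug that is toxic to dividing cells, at 40 mg/kg body weight, and were dosed with saline. B+Con-FMT mice received the same busulfan injection and then, by mouth for 2 weeks, fecal microbiota transplantation (FMT) from control donors. B+A10-FMT mice received busulfan and FMT from donors that had been given alginate oligosaccharide (AOS) at 10 mg/kg body weight for 3 weeks. The small intestine content of the donors was pooled by donor group, how many preparations the mice of an FMT group received is not given in the sources used here, and no group received FMT without busulfan. The design asks how the spleen differs after busulfan, and how it differs again after each kind of FMT.

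Integrins are adhesion receptors made of an alpha and a beta chain, and a chain reaches the cell surface only when it is paired. In the spleen they hold lymphocytes, macrophages and developing blood cells to vessels, stroma and matrix, and they let platelets bind to each other and to matrix. The alpha-4 chain (Itga4) pairs with beta-1 (Itgb1) into a receptor for Vcam1 and fibronectin, and with beta-7 (Itgb7) into a receptor for Madcam1. The alpha-L chain (Itgal) pairs with the leukocyte beta-2 chain (Itgb2) into LFA-1, the receptor for the Icam proteins. Beta-1 also pairs with alpha-5 (Itga5, a fibronectin receptor), alpha-6 (Itga6, a laminin receptor) and alpha-9 (Itga9, a receptor for Svep1, Emilin1 and other matrix proteins). The alpha-V chain (Itgav) pairs with beta-1 and with beta-3 (Itgb3), and platelet beta-3 pairs mainly with Itga2b. All values are for RNA, and no chain was measured as protein.

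Values are RPKM, read numbers scaled by transcript length and by the mapped reads of the library, which the authors deposited for each RefSeq transcript and which were summed here for each gene. Depth was estimated from the steps between low RPKM values at 14500000 to 15300000 reads per mouse, and the spread between 3 mice limits the precision of each mean. Globin transcripts took 23.3% to 32.4% of the summed RPKM of a mouse. B cell, T cell, red pulp macrophage and erythroid markers were detected in every mouse. Markers of pancreatic acinar cells, which do not belong to spleen, summed to 569 to 3101 RPKM in Con-sa mice, 199 to 1387 in B-sa mice, 3338 to 5355 in B+Con-FMT mice and 190 to 3862 in B+A10-FMT mice. Kidney markers summed to 75.3 to 117.1 RPKM in Con-sa mice and to between 0.71 and 62.0 in the busulfan groups. The 3 mice of a group are separate animals, and the tissue is a mixture, so fewer cells of a type and less RNA per cell cannot be told apart.

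Compared per length, the beta chains stood above their alpha partners among these 10 chains. Averaged over the 12 mice, Itgb1 was highest at 95.4 RPKM, followed by Itgb2 at 93.0 and Itgb7 at 65.9. Itga4 stood at 44.2 RPKM, Itgal at 38.5 and Itgb3 at 37.5. Itga6 was lower at 16.1, and Itga9, Itga5 and Itgav lay at 7.01, 6.40 and 5.73 RPKM. The sum over the 10 chains was 394 to 402 RPKM in Con-sa mice, 385 to 410 in B-sa mice, 385 to 414 in B+Con-FMT mice and 433 to 463 in B+A10-FMT mice, so it was highest in all 3 B+A10-FMT mice.

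**Figure D1:**
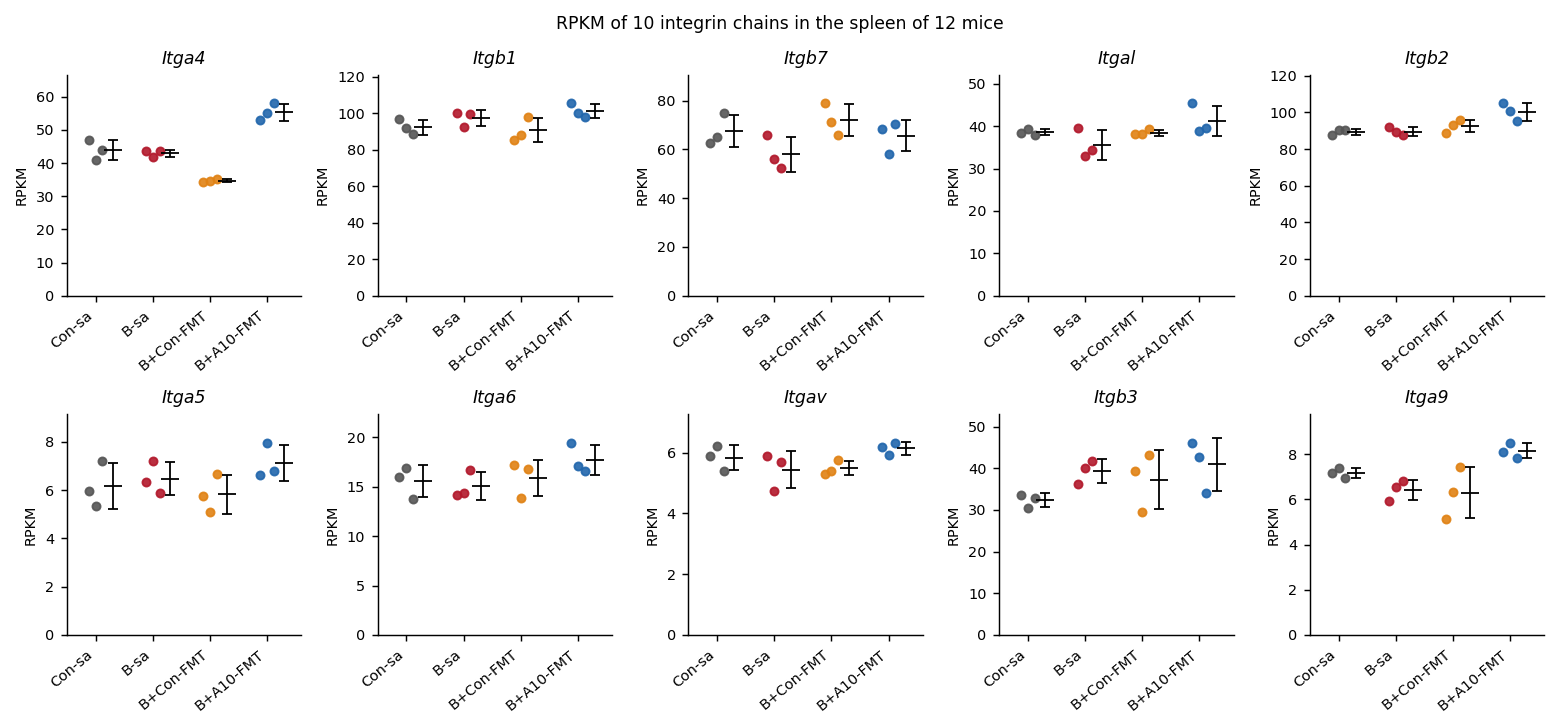
RPKM of each integrin chain in each of the 12 mice. Each panel is a chain, points are mice and bars are group means in the Con-sa, the B-sa, the B+Con-FMT and the B+A10-FMT mice. Itga4 separates into 3 levels, with B+A10-FMT at 52.93 to 58.02 RPKM, Con-sa and B-sa together at 40.96 to 47.09, and B+Con-FMT at 34.19 to 35.13, while the groups overlap more in most other chains.

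Differences were taken on the log2(RPKM + 1) scale, tested with limma across all genes, and called at an adjusted p under 0.05 (Benjamini-Hochberg). After busulfan alone, in B-sa relative to Con-sa, 0 of the 10 chains were called by limma and 0 had an unadjusted p under 0.05, while 14.5% of all genes tested were called (4.73% higher and 9.78% lower). The mice of the pair of groups did not overlap for 2 chains, Itgb3 (higher) and Itga9 (lower), against 34.0% of all genes. For B+Con-FMT relative to B-sa, 1 chain was called, Itga4 (lower), against 0.844% of all genes (0.623% higher and 0.221% lower), and Itga4 was also the 1 chain with no overlap, against 19.4% of all genes. For B+A10-FMT relative to B-sa, Itga4 was the 1 chain called (higher), against 5.27% of all genes (4.0% higher and 1.27% lower). There 4 chains did not overlap (Itga4, Itgb2, Itgav and Itga9, all higher), against 27.0%.

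In B+A10-FMT relative to B+Con-FMT, 2 chains were called, Itga4 and Itga9, both higher, against 10.4% of all genes (7.58% higher and 2.78% lower). No overlap was seen for 3 chains, Itga4, Itgav and Itga9, against 35.0%. For B+A10-FMT relative to Con-sa, Itga4 alone was called (higher), against 0.41% of all genes (0.118% higher and 0.292% lower), and 5 chains did not overlap (Itga4, Itgb1, Itgb2, Itgb3 and Itga9, all higher), against 21.6%. For B+Con-FMT relative to Con-sa, Itga4 alone was called (lower), against 8.87% (2.3% higher and 6.57% lower), and it alone did not overlap, against 34.1%. Itga4 was thus called in 5 of the 6 comparisons, which share groups and are not independent of each other.

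Most chains had a higher mean in B+A10-FMT than in each of the other groups, by small amounts. The log2 fold change was positive for 10 of 10 chains in B+A10-FMT relative to B-sa, for 9 of 10 relative to B+Con-FMT and for 9 of 10 relative to Con-sa, where 62.5%, 61.2% and 51.8% of all genes were positive. The median log2 fold change of the 10 chains was 0.17, 0.14 and 0.16 in these comparisons, and that of all genes was 0.05, 0.05 and 0.005. With median-of-ratios scaling, which sets the median gene near 0, the count relative to B-sa was 9 of 10 and the medians of the chains were 0.12, 0.10 and 0.16. With curated transcripts alone 10, 8 and 8 of 10 were positive. In the comparisons without B+A10-FMT the chains were spread around 0, with 4 of 10 positive in B-sa relative to Con-sa, 5 of 10 in B+Con-FMT relative to B-sa and 4 of 10 in B+Con-FMT relative to Con-sa, where 40.2%, 48.5% and 40% of all genes were positive. Median-of-ratios scaling gave 6 of 10, 5 of 10 and 6 of 10 there, and the chains' medians lay between -0.04 and 0.04 under both scalings. With totals equalised outside the globin genes the counts were 4, 3 and 2 of 10, with medians of -0.03, -0.06 and -0.06.

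The balance of calls over all genes turned with median-of-ratios scaling in 4 comparisons. It went from 599 higher and 1239 lower to 966 and 736 in B-sa relative to Con-sa, from 507 and 161 to 287 and 329 in B+A10-FMT relative to B-sa, from 960 and 352 to 551 and 695 in B+A10-FMT relative to B+Con-FMT, and from 292 and 832 to 632 and 499 in B+Con-FMT relative to Con-sa. With totals equalised outside the globin genes it was 67 and 113 in B+Con-FMT relative to B-sa, where it had been 79 and 28, 2100 and 239 in B+A10-FMT relative to B+Con-FMT, and 199 and 1637 in B+Con-FMT relative to Con-sa. The shares of all genes called higher and lower therefore depend on the scaling.

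**Figure D2:**
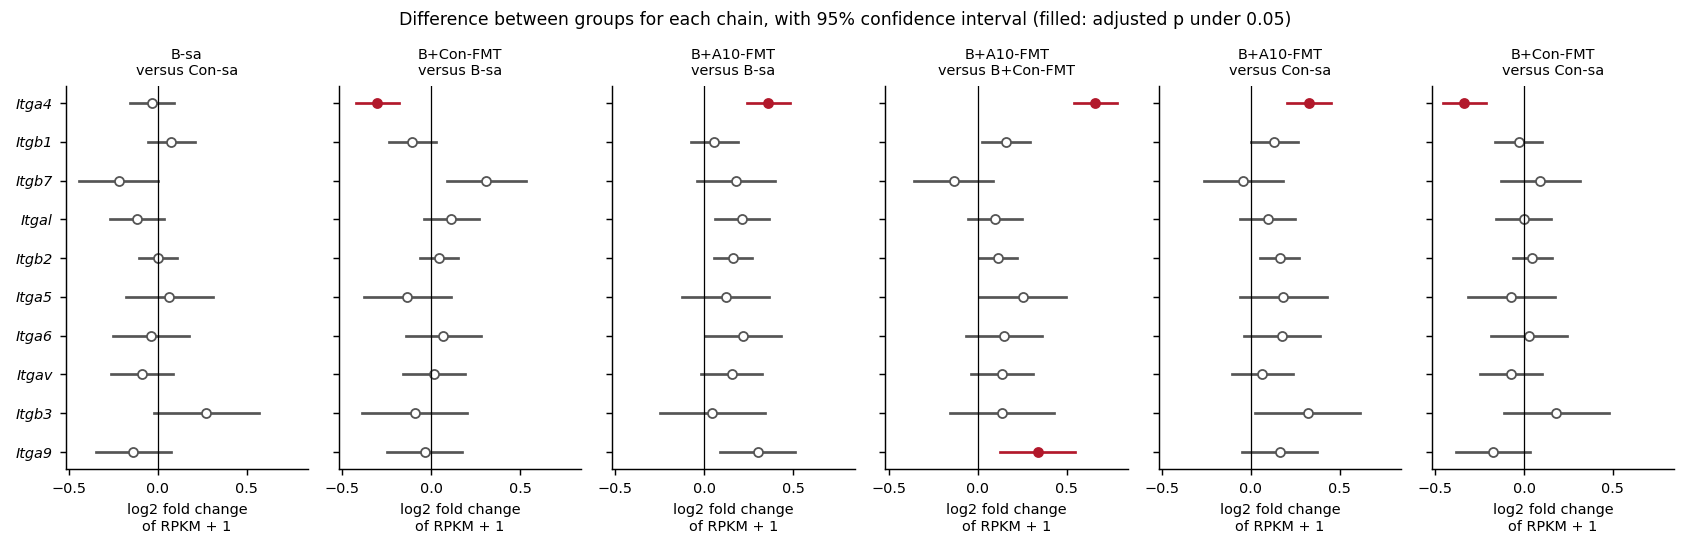
Log2 fold change of each integrin chain in the 6 comparisons, on the log2(RPKM + 1) scale, with 95% confidence intervals from limma. Itga4 differs from 0 by more than its interval in 5 comparisons and reaches 0.66 in B+A10-FMT relative to B+Con-FMT, and the intervals of most other chains include 0 in most comparisons.

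The alpha-4 chain gave the clearest pattern. Itga4 (Entrez Gene 16401, chr2:79255426-79333114 in GRCm38) is listed with a single transcript, so its value does not depend on how reads were divided between isoforms. Its level was 47.09, 40.96 and 43.96 RPKM in the 3 Con-sa mice and 43.58, 41.71 and 43.52 in the B-sa mice. It was 34.19, 34.55 and 35.13 RPKM in the B+Con-FMT mice and 52.93, 55.24 and 58.02 in the B+A10-FMT mice. Every B+A10-FMT mouse was above every other mouse, every B+Con-FMT mouse was below every other mouse, and the Con-sa and B-sa mice overlapped. The order of the group means was 55.4 ± 2.55 in B+A10-FMT mice, 44.0 ± 3.07 in Con-sa mice, 42.9 ± 1.06 in B-sa mice and 34.6 ± 0.474 in B+Con-FMT mice (RPKM, SD, n = 3 each), and the neighbours Con-sa and B-sa did not differ beyond their spread.

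The mean of Itga4 in B+A10-FMT was 1.60 times that in B+Con-FMT, with a log2 fold change of 0.66 (SE 0.056, limma adjusted p = 0.000165). By p this was rank 1 of the 12671 genes in that comparison. Against B-sa, B+A10-FMT was 1.29 times as high, with a log2 fold change of 0.36 (SE 0.056, limma adjusted p = 0.00649). Against Con-sa it was 1.26 times as high, with a log2 fold change of 0.33 (limma adjusted p = 0.0254). B+Con-FMT stood at 0.806 times the B-sa mean, with a log2 fold change of -0.30 (limma adjusted p = 0.0260), and at 0.787 times the Con-sa mean, with a log2 fold change of -0.34 (limma adjusted p = 0.00591). For B-sa relative to Con-sa the log2 fold change was -0.03, with a 95% interval of -0.15 to 0.09.

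The calls of Itga4 in B+A10-FMT relative to B-sa, in B+A10-FMT relative to B+Con-FMT and in B+Con-FMT relative to Con-sa were kept in all 20 alternative fits. For B+Con-FMT relative to B-sa the log2 fold change stayed between -0.35 and -0.29, and the call was lost in 6 of the 20. The limma adjusted p was up to 0.115 when B+Con-FMT mouse 1 was left out, and the call was also lost without B+Con-FMT mouse 2 (0.0909), B-sa mouse 2 (0.0723) or B-sa mouse 3 (0.0846). For B+A10-FMT relative to Con-sa it was lost in 7, without Con-sa mouse 2 (0.0871) or 3 (0.109) and without B+A10-FMT mouse 1 (0.0814), 2 (0.126) or 3 (0.0702) among them, while the log2 fold change stayed between 0.28 and 0.38.

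The sequences around the starts of Itga4 and of Itgb1, the 2 chains of the Vcam1 receptor, are shown because the alpha chain separated the mice in 5 of 6 comparisons and the beta chain in 1. Each runs 5′ to 3′ on the coding strand from 250 bases before the annotated start to 50 after it, from RefSeq (GRCm38.p6), whose table held 6 of the 10 chains. Capitals mark GC boxes (GGGCGG or its reverse complement CCGCCC, the core bound by Sp1-family factors) and ETS cores (CCGGAA or its reverse complement TTCCGG), the only motifs searched.
Itga4, chr2:79255176-79255475, plus strand: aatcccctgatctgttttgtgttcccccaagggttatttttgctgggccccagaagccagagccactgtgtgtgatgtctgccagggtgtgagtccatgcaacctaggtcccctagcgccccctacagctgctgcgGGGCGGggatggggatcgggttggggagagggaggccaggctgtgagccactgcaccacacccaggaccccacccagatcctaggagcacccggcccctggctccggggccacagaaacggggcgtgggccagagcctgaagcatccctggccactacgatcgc
Itgb1, chr8:128685404-128685703, plus strand: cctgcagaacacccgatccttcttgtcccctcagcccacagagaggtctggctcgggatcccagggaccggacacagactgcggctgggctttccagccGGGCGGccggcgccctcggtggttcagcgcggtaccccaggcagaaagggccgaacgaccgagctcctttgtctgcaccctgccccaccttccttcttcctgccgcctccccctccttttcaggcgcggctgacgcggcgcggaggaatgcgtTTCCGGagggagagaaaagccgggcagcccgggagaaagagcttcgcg
The Itga4 window holds 1 GC box, at -114 from the start, and no ETS core. The Itgb1 window holds 1 GC box, at -151, and 1 ETS core, at 3. Of 32851 promoter windows of the same length, 35.7% hold a GC box and 14.9% an ETS core, so these letters are common, and no binding was measured. GC content was 64.3% in the Itga4 window and 67.3% in the Itgb1 window, against a median of 52.7% over all windows.

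The beta chains that pair with alpha-4 gave no call in any comparison. Itgb1 (Entrez Gene 16412, chr8:128685654-128733579) was also listed with a single transcript, at 96.63, 91.95 and 88.46 RPKM in Con-sa mice and 100.20, 92.25 and 99.75 in B-sa mice. It was 85.48, 88.22 and 98.09 RPKM in B+Con-FMT mice and 105.35, 100.25 and 98.07 in B+A10-FMT mice. The B+A10-FMT mice were above all Con-sa mice, but they overlapped the B-sa and the B+Con-FMT mice. For B+A10-FMT relative to B+Con-FMT the log2 fold change of Itgb1 was 0.16 (SE 0.061, limma adjusted p = 0.108), with a 95% interval of 0.03 to 0.29 that lies below the value of Itga4. It was called there without B+Con-FMT mouse 3 (limma adjusted p = 0.0455) and when totals were equalised outside the globin genes (limma adjusted p = 0.0395).

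Itgb7 (Entrez Gene 16421, chr15:102215994-102233405), the partner of alpha-4 in the gut-homing receptor, was 62.84, 64.95 and 75.14 RPKM in Con-sa mice and 66.03, 55.93 and 52.20 in B-sa mice. It was 78.90, 71.38 and 66.03 RPKM in B+Con-FMT mice and 68.35, 58.32 and 70.45 in B+A10-FMT mice. The groups overlapped in all 6 comparisons, and B+Con-FMT, the lowest group for Itga4, had the highest mean for Itgb7, 72.1 ± 6.47 RPKM against 58.1 ± 7.16 in B-sa mice (SD, n = 3). That difference had a log2 fold change of 0.31 (SE 0.10) and was not called (limma adjusted p = 0.146), except without B-sa mouse 1, when the log2 fold change was 0.41 (limma adjusted p = 0.0461).

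To compare the chains of a receptor within a mouse, the ratio of alpha to beta RPKM was taken in each mouse for 8 pairs, and its log2 was compared by a two-sided exact permutation test. With 3 mice against 3 the smallest possible p is 0.1, so no ratio could pass 0.05, and every ratio whose groups did not overlap had that p. Over 8 pairs and 6 comparisons, 16 of 48 ratio comparisons did not overlap, of which 9 were those of Itga4. Among single genes, between 19.4% and 35.0% did not overlap, depending on the comparison.

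The Itga4/Itgb1 ratio was 0.487, 0.445 and 0.497 in Con-sa mice and 0.435, 0.452 and 0.436 in B-sa mice. It was 0.400, 0.392 and 0.358 in B+Con-FMT mice and 0.502, 0.551 and 0.592 in B+A10-FMT mice. The B+A10-FMT mice were above and the B+Con-FMT mice were below all others, so 5 of 6 comparisons did not overlap (exact permutation p = 0.1 each), and Con-sa and B-sa overlapped (exact permutation p = 0.2). The log2 ratio was 0.52 higher in B+A10-FMT than among B+Con-FMT mice. An RNA ratio does not give the amount of paired receptor.

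The Itga4/Itgb7 ratio was 0.749, 0.631 and 0.585 in Con-sa mice and 0.660, 0.746 and 0.834 in B-sa mice. It was 0.433, 0.484 and 0.532 in B+Con-FMT mice and 0.774, 0.947 and 0.824 in B+A10-FMT mice. The B+Con-FMT mice were below all other mice, the B+A10-FMT mice were above all Con-sa and B+Con-FMT mice, and B+A10-FMT overlapped B-sa. The log2 ratio was 0.81 higher in B+A10-FMT than among B+Con-FMT mice (exact permutation p = 0.1), and the means of the chains differed in opposite directions, although Itgb7 by itself was not called.

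**Figure D3:**
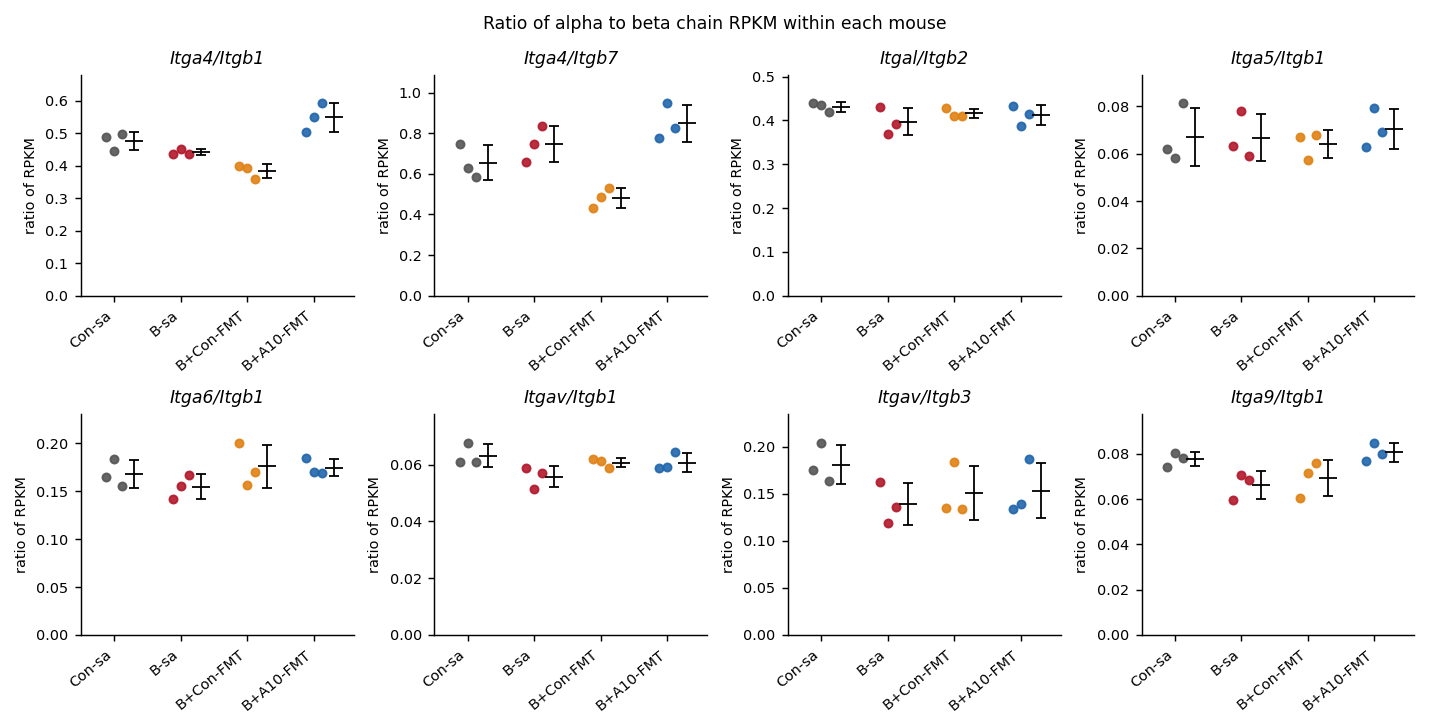
Alpha to beta RPKM ratio of 8 chain pairs in each of the 12 mice, by group. For Itga4/Itgb1 the B+A10-FMT mice (0.502 to 0.592) lie above and the B+Con-FMT mice (0.358 to 0.400) below all others, whereas the Itgal/Itgb2 groups overlap in every comparison.

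The LFA-1 chains gave no call. Itgal (Entrez Gene 16408, chr7:127296139-127335137) was 38.50, 39.28 and 37.82 RPKM in Con-sa mice, 39.53, 32.93 and 34.28 in B-sa mice, 38.05, 38.09 and 39.29 in B+Con-FMT mice and 45.38, 38.90 and 39.66 in B+A10-FMT mice. Its groups overlapped in all 6 comparisons, and its log2 fold change of 0.21 in B+A10-FMT relative to B-sa (SE 0.071, limma adjusted p = 0.0950) was called only without B-sa mouse 1 (0.29, limma adjusted p = 0.0274). Itgb2 (Entrez Gene 16414, chr10:77530329-77565708) was 87.72, 90.42 and 90.38 RPKM in Con-sa mice and 91.98, 89.23 and 87.48 in B-sa mice. It was 88.90, 93.11 and 95.63 RPKM in B+Con-FMT mice and 104.96, 100.54 and 95.48 in B+A10-FMT mice. The B+A10-FMT mice were above all Con-sa and B-sa mice, by a log2 fold change of 0.16 in both comparisons, and neither was called (limma adjusted p = 0.212 and 0.0740). For B-sa relative to Con-sa the log2 fold change of Itgb2 was 0.0007, with a 95% interval of -0.11 to 0.11. The Itgal/Itgb2 ratio averaged 0.431, 0.397, 0.416 and 0.412 in the Con-sa, the B-sa, the B+Con-FMT and the B+A10-FMT mice, and its groups overlapped in 6 of 6 comparisons (exact permutation p between 0.2 and 0.9).

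The alpha-9 chain was the other chain that was called. Itga9 (Entrez Gene 104099, chr9:118606709-118901003) was 7.18, 7.40 and 6.93 RPKM in Con-sa mice, 5.95, 6.53 and 6.82 in B-sa mice, 5.15, 6.31 and 7.44 in B+Con-FMT mice and 8.09, 8.51 and 7.85 in B+A10-FMT mice. The 3 B+A10-FMT mice were above all 9 other mice, the B-sa mice were below all Con-sa mice, and the B+Con-FMT mice were spread across both. The log2 fold change was 0.34 in B+A10-FMT relative to B+Con-FMT (SE 0.097, limma adjusted p = 0.0451), 0.30 relative to B-sa (limma adjusted p = 0.0850) and 0.16 relative to Con-sa (limma adjusted p = 0.475). The call stood near the threshold. It was kept in 6 of 20 alternative fits, of which 3 were fits without a mouse (B-sa mouse 1, B-sa mouse 3 or B+Con-FMT mouse 3), and it was lost without any of the other 9 mice (limma adjusted p from 0.0532 to 0.150). Without B+Con-FMT mouse 1 the log2 fold change was 0.22, and with the replicate number as a block its adjusted p was 0.0518.

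Of the 3 Itga9 transcripts, NM_001113514.1 averaged 3.41, 3.25, 3.51 and 3.49 RPKM in the Con-sa, the B-sa, the B+Con-FMT and the B+A10-FMT mice. The transcript NM_133721.2 averaged 3.07, 2.003, 1.95 and 3.80 RPKM, and XM_006511918.3 averaged 0.690, 1.18, 0.837 and 0.863. The means of NM_133721.2 therefore carried most of the difference between the groups. Its share of Itga9 within a B+A10-FMT mouse ranged from 34.0% to 63.0% and within a B+Con-FMT mouse from 26.7% to 36.7%, so the shares overlapped, and the division of reads between overlapping transcripts is uncertain. The Itga9/Itgb1 ratio averaged 0.0777, 0.0662, 0.0692 and 0.0806 in the same order of groups, and it did not overlap in 3 of 6 comparisons, being lower in B-sa than among Con-sa mice and higher in B+A10-FMT than among B-sa mice and B+Con-FMT mice (exact permutation p = 0.1 each).

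The alpha-5 and alpha-6 chains gave no call. Itga5 (Entrez Gene 16402, chr15:103344286-103366791) averaged 6.17 ± 0.940 RPKM in Con-sa mice, 6.47 ± 0.674 in B-sa mice, 5.82 ± 0.793 in B+Con-FMT mice and 7.12 ± 0.732 in B+A10-FMT mice (SD, n = 3 each), and its groups overlapped in every comparison. Its widest difference, B+A10-FMT relative to B+Con-FMT, had a log2 fold change of 0.25 with a 95% interval of 0.01 to 0.50 (limma adjusted p = 0.159). Itga6 (Entrez Gene 16403, chr2:71786886-71858427) averaged 15.5 ± 1.62, 15.1 ± 1.40, 15.9 ± 1.82 and 17.7 ± 1.54 RPKM in the same order. The Itga6 groups also overlapped in all 6 comparisons, with a largest log2 fold change of 0.22 in B+A10-FMT relative to B-sa (95% interval 0.004 to 0.43, limma adjusted p = 0.196). The Itga5/Itgb1 ratio overlapped in 6 of 6 comparisons, and the Itga6/Itgb1 ratio in 5 of 6, the exception being B+A10-FMT above B-sa (0.175 against 0.155 on average).

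Itgb3, the platelet and megakaryocyte beta chain, had the largest standard error of the 10 chains (0.13 on the log2 scale). Itgb3 (Entrez Gene 16416, chr11:104608000-104670476) was 33.62, 30.52 and 32.99 RPKM in Con-sa mice, 36.27, 40.03 and 41.79 in B-sa mice, 39.25, 29.41 and 43.15 in B+Con-FMT mice and 46.15, 42.66 and 33.96 in B+A10-FMT mice. All B-sa and all B+A10-FMT mice were above all Con-sa mice, while the B+Con-FMT mice spanned both ranges. Its log2 fold change was 0.27 for B-sa relative to Con-sa (limma adjusted p = 0.189) and 0.32 in B+A10-FMT relative to Con-sa (limma adjusted p = 0.336), and in a fit of the B-sa and Con-sa mice alone the former was called (limma adjusted p = 0.0487). Megakaryocyte and platelet markers, 7 genes with Itga2b among them but not Itgb3, summed to 815 to 879 RPKM in Con-sa mice, 1017 to 1251 in B-sa mice, 796 to 1236 in B+Con-FMT mice and 854 to 1244 in B+A10-FMT mice. In B-sa relative to Con-sa all 7 had a positive log2 fold change, with a median of 0.41. Limma called 1 of them higher there, against 4.73% of all genes, and none in the other comparisons. The part of these cells in the Itgb3 values was not tested. Itgav (Entrez Gene 16410, chr2:83722303-83806917) was 5.88, 6.23 and 5.40 RPKM in Con-sa mice, 5.88, 4.75 and 5.69 in B-sa mice, 5.31, 5.40 and 5.77 in B+Con-FMT mice and 6.18, 5.92 and 6.33 in B+A10-FMT mice. The B+A10-FMT mice were above all B-sa and all B+Con-FMT mice, by log2 fold changes of 0.15 and 0.14 (limma adjusted p = 0.256 and 0.271). Without B-sa mouse 2 the former was 0.07, and with curated (NM) transcripts alone both were near 0, at 0.008 and -0.009. The curated Itgav transcript NM_008402.3 averaged 4.78, 4.76, 4.81 and 4.80 RPKM in the Con-sa, the B-sa, the B+Con-FMT and the B+A10-FMT mice, and the predicted transcript XM_006498807.3, which averaged 1.06, 0.680, 0.687 and 1.35, carried the difference. The Itgav/Itgb3 ratio was 0.181 on average in Con-sa and 0.139 in B-sa mice, without overlap (exact permutation p = 0.1), and it overlapped in the other 5 comparisons. Itga2b, the main platelet partner of beta-3, was not among the 8 pairs. It averaged 30.2 RPKM in Con-sa and 40.4 in B-sa mice, where Itgb3 averaged 32.4 and 39.4. The Itgav/Itgb1 ratio averaged 0.0632 in Con-sa mice, 0.0557 in B-sa mice, 0.0607 in B+Con-FMT mice and 0.0608 in B+A10-FMT mice, and the B-sa mice were below all Con-sa and all B+Con-FMT mice (exact permutation p = 0.1 each).

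For each chain, the gene outside the integrin family whose log2(RPKM + 1) was most like it over the 12 mice was found, as a description. The closest gene to Itga4 was Kit, the stem cell factor receptor of blood progenitors and mast cells (Pearson's r = 0.954), with 8.12, 7.76, 6.74 and 9.38 RPKM on average in the Con-sa, the B-sa, the B+Con-FMT and the B+A10-FMT mice. The closest to Itgb3 was Thbs1, which encodes thrombospondin, a platelet granule protein (r = 0.992), and the closest to Itga9 was Axl, a receptor tyrosine kinase of macrophages (r = 0.952). Axl averaged 54.6, 48.6, 44.6 and 64.3 RPKM in the same order. The other chains were closest to Yeats2 (Itgb1), Ankrd13d (Itgb7), Gbf1 (Itgal), 9530068E07Rik (Itgb2), Retsat (Itga5), Cept1 (Itga6) and Ahcyl2 (Itgav), with r from 0.860 to 0.976. Each of these genes is the closest of all genes tested over 12 mice that share groups and library preparation, so r carries no test.

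The remaining integrin chains were described from a list of 16, of which 13 passed the filter and Itga10, Itgb6 and Itgb8 did not. In the lists from here on, the numbers of genes higher and lower are numbers of limma calls. Percentages of all genes beside them are of the main fit, also where a count under another scaling follows. For B+A10-FMT relative to B+Con-FMT, limma called 4 of the 13 higher and 0 lower, against 7.58% and 2.78% of all genes. These were Itga1, a collagen receptor chain (5.47 RPKM in B+Con-FMT mice and 8.01 in B+A10-FMT mice, log2 fold change 0.48, limma adjusted p = 0.00976), Itga2, another collagen receptor chain (1.11 and 2.12 RPKM, 0.57, limma adjusted p = 0.00866), Itgad of splenic macrophages (12.8 and 19.7 RPKM, 0.59, limma adjusted p = 0.0419) and Itgax of dendritic cells (16.4 and 21.0 RPKM, 0.34, limma adjusted p = 0.0158). Itga1 and Itgad were also the 2 called in B+A10-FMT relative to B-sa, with log2 fold changes of 0.44 and 0.65 (limma adjusted p = 0.0209 and 0.0425), against 4.0% of all genes called higher there, and Itgad had no call with median-of-ratios scaling. Itga1, Itga2 and Itgax were lower in B+Con-FMT than among Con-sa mice, where 6.57% of all genes were lower, with Itga2 alone still called there under median-of-ratios scaling. Itga3, a laminin receptor chain, was the only 1 called in B-sa relative to Con-sa (log2 fold change -0.34, limma adjusted p = 0.0398), where 9.78% of all genes were lower, and with median-of-ratios scaling limma called 0 of the 13 there, with 3 at an unadjusted p under 0.05. Limma called, for B+Con-FMT relative to B-sa and for B+A10-FMT relative to Con-sa, 0 of the 13, with 3 and 0 at an unadjusted p under 0.05. Itga2b, the most abundant of the list and the platelet partner of beta-3, stood at 30.2, 40.4, 36.0 and 37.4 RPKM in the Con-sa, the B-sa, the B+Con-FMT and the B+A10-FMT mice and was called in no comparison. The median log2 fold change of the 13 in B+A10-FMT relative to B+Con-FMT was 0.09, against 0.05 for all genes, and it was 0.14 with totals equalised outside the globin genes. With median-of-ratios scaling it was 0.04, with 3 higher and 0 lower, Itgad having lost its call.

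Among 29 integrin ligands, 23 passed the filter. For B+A10-FMT relative to B+Con-FMT, 8 were higher and 1 was lower, against 7.58% and 2.78% of all genes, at a median of 0.19 on the log2 scale. With median-of-ratios scaling 5 were higher and 3 lower, with a median of 0.16, and 11 were higher and 0 lower, with a median of 0.23, when totals were equalised outside the globin genes. Among the higher ones, which include genes of the basement membrane, Nid1 (nidogen) rose from 12.7 to 19.6 RPKM (log2 fold change 0.59, limma adjusted p = 0.000631), Col4a1 from 22.5 to 31.9 (0.49, limma adjusted p = 0.00866) and Col4a2 (type IV collagen chains) from 14.6 to 19.9 (0.43, limma adjusted p = 0.00866). Vcam1, the cell surface ligand of alpha-4 beta-1, was 109 RPKM in B+Con-FMT mice and 141 in B+A10-FMT mice (0.37, limma adjusted p = 0.0280), without a call under median-of-ratios scaling. Svep1, an alpha-9 ligand, was 3.43 and 5.50 RPKM (0.56, limma adjusted p = 0.00964), and Fbln5 (fibulin) was 33.1 and 44.0 (0.41, limma adjusted p = 0.00772). The others higher were Fn1 (fibronectin, 0.38) and Emilin1 (0.37), both without a call under median-of-ratios scaling, and the 1 lower was Postn (periostin, -0.37), all 3 named after their values were seen. Madcam1, the ligand of alpha-4 beta-7, was 14.1, 16.4, 18.5 and 13.1 RPKM in the Con-sa, the B-sa, the B+Con-FMT and the B+A10-FMT mice and was called in no comparison. This gene was also named after its values were seen.

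In B+A10-FMT relative to B-sa, 5 of the 23 ligands were higher and 0 lower (Fbln5, Nid1, Col4a1, Col4a2 and Svep1, log2 fold changes 0.34 to 0.58), against 4.0% and 1.27% of all genes, and 4 were higher with median-of-ratios scaling. For B-sa relative to Con-sa 4 were lower and 0 higher, Nid1, Col4a1, Col4a2 and, named after its values were seen, Icam2, with log2 fold changes of -0.25 to -0.29, against 9.78% and 4.73% of all genes, and with median-of-ratios scaling 0 were called by limma and 12 had an unadjusted p under 0.05. For B+Con-FMT relative to Con-sa 4 were lower (Nid1, Col4a1, Col4a2 and Svep1, -0.34 to -0.47) and 0 were higher, against 6.57% and 2.3% of all genes. With totals equalised outside the globin genes 6 were lower, against 1637 of 12667 genes, and with median-of-ratios scaling 3, against 499 of 12653. Of the ligands, 0 were called by limma in B+Con-FMT relative to B-sa (4 at an unadjusted p under 0.05), and Fbln5 alone was called in B+A10-FMT relative to Con-sa, as higher (0.37, limma adjusted p = 0.0451), against 0.118% of all genes. Mfge8, a ligand of alpha-V integrins that bridges dying cells to macrophages and the most abundant ligand, averaged 288, 317, 356 and 285 RPKM in the Con-sa, the B-sa, the B+Con-FMT and the B+A10-FMT mice. Icam1, a ligand of LFA-1, averaged 41.6, 38.7, 38.7 and 41.3 RPKM, in the same order of groups, and neither was called in any comparison. Endothelial markers moved with these genes. Of 7, 6 were higher in B+A10-FMT than among B+Con-FMT mice (4 with median-of-ratios scaling), against 7.58% of all genes, and 3 were lower in B-sa than among Con-sa mice (2 with either other scaling), against 9.78%. In B+Con-FMT relative to Con-sa 5 were lower (3 with median-of-ratios scaling and 6 with totals equalised outside the globin genes), against 6.57%, and in B+A10-FMT relative to B-sa 3 were higher (3 and 4), against 4.0%. They had summed levels of 98.8 to 100.8 RPKM in Con-sa mice, 79.5 to 86.8 in B-sa mice, 76.9 to 85.5 in B+Con-FMT mice and 100.3 to 104.9 in B+A10-FMT mice. The part of endothelial content in the ligand values was not tested.

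Of 47 genes for integrin activation and adaptors, which link the tails of beta chains to actin and to kinases, 44 passed the filter. For B-sa relative to Con-sa 8 were lower and 1 was higher, 20.5% of the 44 against 14.5% of all genes called (9.78% lower and 4.73% higher), and with median-of-ratios scaling 5 were lower and 1 higher. Among the lower ones were Syk, a kinase of immune receptors and integrins (143 RPKM in Con-sa mice and 111 in B-sa mice, log2 fold change -0.37, limma adjusted p = 0.00550), Tns1 (tensin, -0.33, limma adjusted p = 0.00760), Bcar1 (-0.33, limma adjusted p = 0.0124), Cyth1, which acts on beta-2 integrins (-0.33, limma adjusted p = 0.0120) and Csk (-0.24, limma adjusted p = 0.0264). The 1 higher was Cd47, an integrin-associated protein (0.22, limma adjusted p = 0.0221), named after its values were seen. In both comparisons of B+A10-FMT with the other busulfan groups 8 were higher, with 0 lower relative to B-sa and 1 lower relative to B+Con-FMT, Itgb1bp1 (-0.29), a beta-1 tail binding protein named after its values were seen. Of all genes, 4.0% were higher and 1.27% lower relative to B-sa, and 7.58% and 2.78% relative to B+Con-FMT. With median-of-ratios scaling 6 were higher and 0 lower relative to B-sa, and 4 were higher and 1 lower relative to B+Con-FMT, while 17 rose and 0 fell with totals equalised outside the globin genes. Fermt2 (kindlin, an activator of beta-1 integrins) was 10.6 RPKM in B+Con-FMT mice and 14.8 in B+A10-FMT mice (0.45, limma adjusted p = 0.00742), and Tns1 and Bcar1 were higher in both comparisons by log2 fold changes of 0.29 to 0.41. For B+Con-FMT relative to Con-sa 3 were lower, Fermt2 (-0.29), Tns1 (-0.36) and, named after its values were seen, Lyn (-0.22), against 6.57% of all genes. With totals equalised outside the globin genes 10 were lower, against 1637 of 12667 genes. With median-of-ratios scaling 1 was lower and 1 higher, against 499 and 632 of 12653 genes. Relative to B-sa in B+Con-FMT and relative to Con-sa in B+A10-FMT 0 were called by limma, with 12 and 11 at an unadjusted p under 0.05. Rap1b, the small GTPase that switches integrins on, and Cd81 were the most abundant with Csk and averaged 226 to 252 and 124 to 139 RPKM over the groups without a call.

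**Figure D4:**
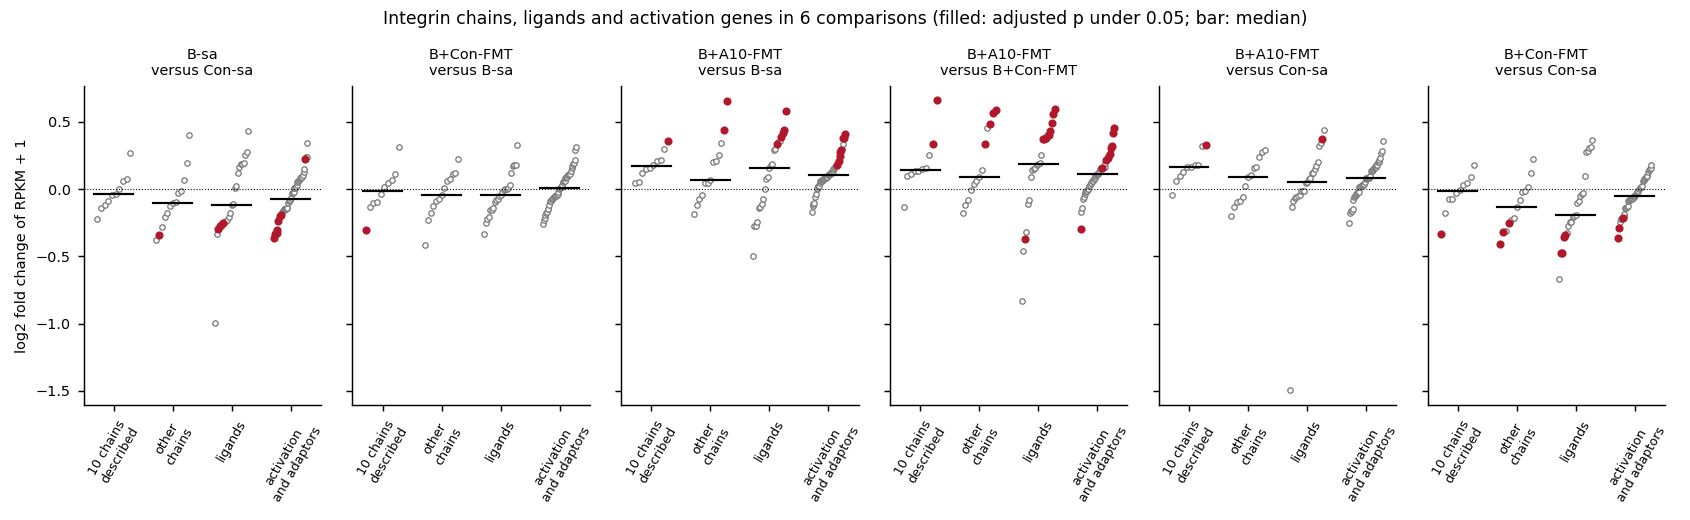
Log2 fold change of each gene that passed the filter, by list, in each of the 6 comparisons. The lists are the 10 integrin chains, the 13 other integrin chains, 23 ligands and 44 activation and adaptor genes. Points are genes, filled where called, and bars are list medians. No ligand, other chain or adaptor gene is called in B+Con-FMT relative to B-sa, and 8 ligands are called higher in B+A10-FMT than among B+Con-FMT mice.

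Marker lists of the cells that carry these chains moved as well, and their part in the integrin values was not tested. Of all genes, 4.73% were called higher and 9.78% lower in B-sa relative to Con-sa, 7.58% higher in B+A10-FMT relative to B+Con-FMT, 4.0% higher when B+A10-FMT was set against B-sa, and for B+Con-FMT relative to Con-sa 2.3% higher and 6.57% lower. The counts that follow, some of 1 or 2 genes, stand beside these shares, and not every call of these lists is given. Red pulp macrophage markers (6 genes, with Vcam1 among them) summed to 589 to 603 RPKM in Con-sa mice, 479 to 628 in B-sa mice, 457 to 554 in B+Con-FMT mice and 715 to 837 in B+A10-FMT mice, and 5 of 6 were higher in B+A10-FMT than among B+Con-FMT mice (2 of 6 with median-of-ratios scaling). In B+A10-FMT 2 of 6 were higher relative to B-sa, and 1 of 6 relative to Con-sa (0 with either other scaling), against 0.118% of all genes. T cell markers summed to 266 to 310, 256 to 323, 328 to 412 and 284 to 327 RPKM in the Con-sa, the B-sa, the B+Con-FMT and the B+A10-FMT mice, with 3 of 7 higher in B+Con-FMT than among Con-sa mice. Of these 7, limma called 1 higher in B+Con-FMT relative to B-sa (2 with median-of-ratios scaling), against 0.623% of all genes, and 1 lower in B-sa relative to Con-sa. B cell markers summed to 2010 to 2222 RPKM in Con-sa mice and to 1526 to 1882 in the busulfan groups, and 5 of 7 were lower in B-sa than among Con-sa mice. In B+Con-FMT relative to Con-sa 2 of 7 were lower (4 with totals equalised outside the globin genes). Natural killer cell markers were lower in B-sa than among Con-sa mice for 5 of 6 genes, and 4 of 6 were lower in B+Con-FMT than among Con-sa mice. They summed to 128 to 135 RPKM in Con-sa mice, 65.5 to 71.6 in B-sa mice, 62.7 to 74.9 in B+Con-FMT mice and 66.5 to 87.8 in B+A10-FMT mice, and 2 of 6 were higher in B+A10-FMT than among B-sa mice (1 with median-of-ratios scaling). Neutrophil markers summed to 1699 to 1757 RPKM in Con-sa mice, 3035 to 4934 in B-sa mice, 1987 to 2869 in B+Con-FMT mice and 1667 to 4155 in B+A10-FMT mice. In B-sa relative to Con-sa all 7 had an unadjusted p under 0.05 and a positive log2 fold change, with a median of 1.09, and limma called 2 of them (1 with totals equalised outside the globin genes). Dendritic cell markers summed to 54.80 to 57.40 RPKM in Con-sa mice, 42.61 to 51.49 in B-sa mice, 39.90 to 41.44 in B+Con-FMT mice and 50.55 to 59.04 in B+A10-FMT mice. They were higher in B+A10-FMT than among B+Con-FMT mice for 2 of 5 genes (3 with totals equalised outside the globin genes), 1 of which was Itgax, given above as an integrin chain. Limma called 2 of 5 lower in B+Con-FMT relative to Con-sa (1 with median-of-ratios scaling) and 1 lower in B-sa relative to Con-sa. In B+Con-FMT relative to B-sa 1 was lower, against 0.221% of all genes. Limma called 0 of 7 acinar markers in each comparison, with 6 at an unadjusted p under 0.05 in B+Con-FMT relative to B-sa and 5 in B+A10-FMT relative to B+Con-FMT, where their median log2 fold changes were 3.26 and -2.87. Of the other lists, 2 of 6 myeloid markers (a list that holds Itgam) were higher in B+A10-FMT than among B+Con-FMT mice (1 with median-of-ratios scaling), 3 of 6 erythroid markers were higher (4 with median-of-ratios scaling and 1 with totals equalised outside the globin genes) and 1 of 8 fibroblast and smooth muscle markers (2 with that setting) and both kidney markers tested were lower in B-sa than among Con-sa mice, and 1 of 5 plasma cell markers was lower in B+Con-FMT than among Con-sa mice. No marker was at 0 in all mice.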

How the data were processed

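Spleen RNA of 12 male ICR mice was analysed, 3 in each of the Con-sa, the B-sa, the B+Con-FMT and the B+A10-FMT groups, and groups were taken from the sample labels. RNA was enriched with oligo(dT), fragmented and sequenced, and the study's methods name SOAPaligner for mapping, whereas the submitters' processing notes name HISAT, Bowtie2 and mm10. The authors transformed read numbers into RPKM and deposited these RPKM for 60654 RefSeq transcripts per mouse, and strand use is not given in the sources used here. RPKM was summed per gene (18221 genes), and the 12671 genes that reached 1 RPKM in 3 or more mice entered 1 limma model of log2(RPKM + 1) (limma 3.58.1, R 4.3.3, intensity trend and robust variances), which held the 12 mice with group as its factor, 6 comparisons and two-sided p adjusted by Benjamini-Hochberg over the genes tested. The pseudocount of 1 lessens the fold changes of low genes. Read numbers were not analysed here, so no counting interval was given, and depth was estimated from 3668 genes with 1 transcript. Gene positions are from GENCODE M21 (GRCm38) and promoters from RefSeq (GRCm38.p6).

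The members, the further lists and the tests were chosen with earlier results of these data known, so no count over a list is independent support. Named were all 10 chains, of each further list of integrin genes the 3 of highest mean RPKM and up to 5 with the smallest adjusted p among those called in any comparison, and for each chain the 1 gene of highest r. Marker lists (T, B, natural killer, plasma and dendritic cells, myeloid cells, neutrophils, red pulp macrophages, megakaryocytes and platelets, endothelium, fibroblasts and smooth muscle, erythroid cells, acinar cells and kidney) served as description. Replicate numbers belong to different mice in each group. Deviations of same-numbered mice correlated between -0.37 and 0.30, and not all above 0.1 in any comparison. For B+Con-FMT relative to Con-sa they were -0.05, 0.28 and 0.30. With 3 mice a group this cannot show whether the numbers mark a shared batch, and the main fit did not pair the mice. Alternatives were a pseudocount of 0.1, no filter, at least 1 RPKM in every mouse, totals equalised outside the globin genes, median-of-ratios scaling, the replicate block, the 2 groups compared alone, curated (NM) transcripts alone, and each mouse left out in turn. The fit was also run on simulated data drawn with its own estimates of the spread. That run does not show how the fit behaves where its model is wrong.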

Additional observations from a re-analysis of the deposited data

How the results depend on the processing

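None of the 6 called log2 fold changes of a chain changed sign in an alternative fit. Among the 54 that were not called, 19 changed sign in at least 1 fit, in 40 of 1080 values, and the reported value of these 19 was at most 0.14 in size. Of 1200 alternative values 1166 kept their side of the threshold, 27 lost a call and 7 gained one. The number of chains called in B-sa relative to Con-sa was 0 and became 1 (Itgb3) in a fit of the 2 groups alone. For B+Con-FMT relative to B-sa it was 1 and became 0 in a fit of the 2 groups alone and 0 with curated transcripts alone, and leaving out 1 mouse gave 0 to 2. In B+A10-FMT relative to B-sa it was 1, and leaving out 1 mouse gave 1 to 2. In B+A10-FMT relative to B+Con-FMT it was 2 and became 1 (Itga4) with no filter, with median-of-ratios scaling, in a fit of the 2 groups alone and with curated transcripts alone. It became 4 (Itga4, Itga9, Itgb1 and Itgb2) with totals equalised outside the globin genes, where 2339 of 12667 genes were called, and leaving out 1 mouse gave 1 to 3. In B+A10-FMT relative to Con-sa it was 1 and became 0 in a fit of the 2 groups alone and 0 with curated transcripts alone, and leaving out 1 mouse gave 0 to 1. The cause of these changes was not tested. The replicate block gave 1 chain (Itga4) in B+A10-FMT relative to B+Con-FMT, where Itga9 had an adjusted p of 0.0518, and it changed no other call of a chain. Over all genes the block called 1462, 85, 417, 917, 41 and 773 genes in the 6 comparisons, against 1838, 107, 668, 1312, 52 and 1124 without it, and in 1, 2, 2, 0, 1 and 4 of the 6 mice of each comparison the correlation was best with the same number. The count of 16 non-overlapping chain ratios stayed within 1.5 times under every alternative run. Leaving out a mouse can only keep or raise this count, so those runs could not show a loss.

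The 3 mice per group, the use of RPKM in place of read numbers and the pooling of donor material within an FMT group limit what these values show. The standard errors of the chains ran from 0.050 to 0.13 on the log2 scale.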
